A study of Homo sapiens with 12 samples.

Results

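The BCL2 family genes described here are BCL2, BCL2L1, MCL1, BCL2L2, BAX, BAK1, BCL2L11, BBC3, PMAIP1 and BID, 10 of the 26485 genes in the deposited tables. They were chosen by name, and each symbol matched 1 row of the read count table and 1 row of the RPKM table. The data come from RNA sequencing of spheroids grown from 3 derivatives of DU145, a human cell line of metastatic prostate cancer, with 4 biological replicates of each line. All 3 lines carry a CRISPR-Cas9 knockout of ITGA2, the gene of the α2 integrin subunit. DU145KO cells were transfected with nothing further, DU145KO+α2 cells carry α2 integrin cDNA in the pawneo2 expression vector, and DU145KO+vector cells carry the empty pawneo2 vector. The last 2 are stably transfected lines that were cultured with geneticin, per the methods of the study, and each line stands for its own transfection and selection, so that a difference between lines cannot be told apart from a difference between the cells that were selected. Spheroids started from 8000 cells each and were kept in medium without serum for 72 hours, with no drug.

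Proteins of the BCL2 family decide whether the outer membrane of the mitochondrion is opened in apoptosis. The antiapoptotic members bind and hold the proapoptotic ones, the effectors BAX and BAK1 form the pores through which cytochrome c leaves the mitochondrion, and the BH3-only members carry stress signals by occupying the groove of the antiapoptotic proteins or by activating the effectors. The balance between them sets how readily carcinoma cells die when drugs such as docetaxel arrest mitosis, and the survival and docetaxel resistance of α2 positive and α2 negative cells were questions of the study. DU145 cells are known to lack BAX protein, so that the BAX values below are values of mRNA.

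The stretch that gives the BH3-only members their name is a short helix, and a leucine or methionine, 3 further residues, a glycine or alanine and an aspartate lie in it. Codons for this order were searched in the coding sequence of the MANE Select transcript of each gene (GENCODE 44, GRCh38). Each of the 10 genes held exactly 1 match, but so loose a pattern was also found in 5616 of all 19061 MANE coding sequences (29.5%), so that a match is a description and not a proof of function. The matches of the 7 genes whose values are given sample by sample below are shown 5′ to 3′ on the coding strand, with the codons of the leucine or methionine, the glycine or alanine and the aspartate in capitals. All lie in coding exons.
MCL1, residues 213 to 218, chr1:150578877-150578894, minus strand: TTAcgacgggttGGGGAT
BCL2L1, residues 90 to 95, chr20:31721934-31721951, minus strand: CTGagggaggcaGGCGAC
BCL2, residues 97 to 102, chr18:63318361-63318378, minus strand: CTCcgccaggccGGCGAC
BAX, residues 63 to 68, chr19:48955787-48955804, plus strand: CTCaagcgcatcGGGGAC
BAK1, residues 78 to 83, chr6:33575399-33575416, minus strand: CTCgccatcatcGGGGAC
BBC3, residues 141 to 146, chr19:47226591-47226608, minus strand: CTGcggcggatgGCGGAC
PMAIP1, residues 29 to 34, chr18:59902673-59902690, plus strand: CTCaggagatttGGAGAC
In 6 of the 7 the codon before the aspartate encodes glycine, and BBC3 has alanine (GCG) there. BCL2L2, which is not shown, was the only member of the 10 with methionine in the first position.

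The samples held 13948734 to 19988111 counted reads, and 3 counts, below which a gene was taken as not detected, correspond to 0.150 to 0.215 CPM (the count scaled to the TMM-adjusted library size), counting error only. ITGA2 was measured at 305 ± 33.5 CPM (SD, n = 4) in DU145KO+α2 compared to 17.6 ± 3.15 CPM in DU145KO+vector cells and 20.7 ± 4.16 CPM in DU145KO cells, so that the knockout lines still held ITGA2 mRNA. The epithelial markers KRT8, KRT18, EPCAM and CDH1 were counted in every sample, and KLK3 and the leukocyte markers PTPRC, CD3E and MS4A1 had at most 1 count in any sample. At an adjusted p of 0.05 in edgeR, CDH1 fell by 0.70 on the log2 scale in DU145KO+α2 compared to DU145KO+vector. Compared to DU145KO, CDH1 fell by 1.13, EPCAM by 1.14 and KRT18 by 0.42, and EPCAM also fell by 0.83 in DU145KO+vector. Of the fibroblast and endothelial markers, PDGFRB, at most 0.758 CPM in any sample, fell in DU145KO+α2 by 1.47 and 1.48 compared to the vector line and DU145KO. KDR, at most 2.98 CPM, was higher by 1.14 in DU145KO+α2 than in the vector line. Its mean was 2.26 CPM in DU145KO+α2, 2.17 CPM in DU145KO and 1.03 CPM in DU145KO+vector, so that the vector line was the low one. COL1A1 and PECAM1 did not change, LUM had no count, and COL3A1 and VWF had at most 4 counts. The part of these differences in the values below was not tested.

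Of the 10 BCL2 family genes, 9 had enough counts to be tested, and none of the 9 changed in any of the 3 comparisons with edgeR's quasi-likelihood test at an adjusted p of 0.05. Of all 14732 genes tested, 11.9% changed when DU145KO+α2 was compared to DU145KO+vector, 8.17% in DU145KO+α2 compared to DU145KO, and 2.34% in DU145KO+vector compared to DU145KO. At an unadjusted p of 0.05 the members past the threshold numbered 0, 0 and 1 in these comparisons. The share of all genes tested at this unadjusted threshold is at least as large as the shares above, but was not counted. The samples of the lines overlapped for all 9 in each comparison, while 17.2%, 12.9% and 8.76% of all genes tested had no overlap. The number changed was 0 as well with the DESeq2 Wald test and with voom and limma, where the share of all genes called was not counted. It was 1 in a single setting, the fit with the replicate number as a block, where MCL1 passed in DU145KO+α2 compared to DU145KO+vector beside 26.5% of all genes. The comparisons share samples, since each line enters 2 of them. As the libraries are bulk RNA, fewer cells that express a gene and less of its mRNA per cell cannot be told apart.

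**Figure D1:**
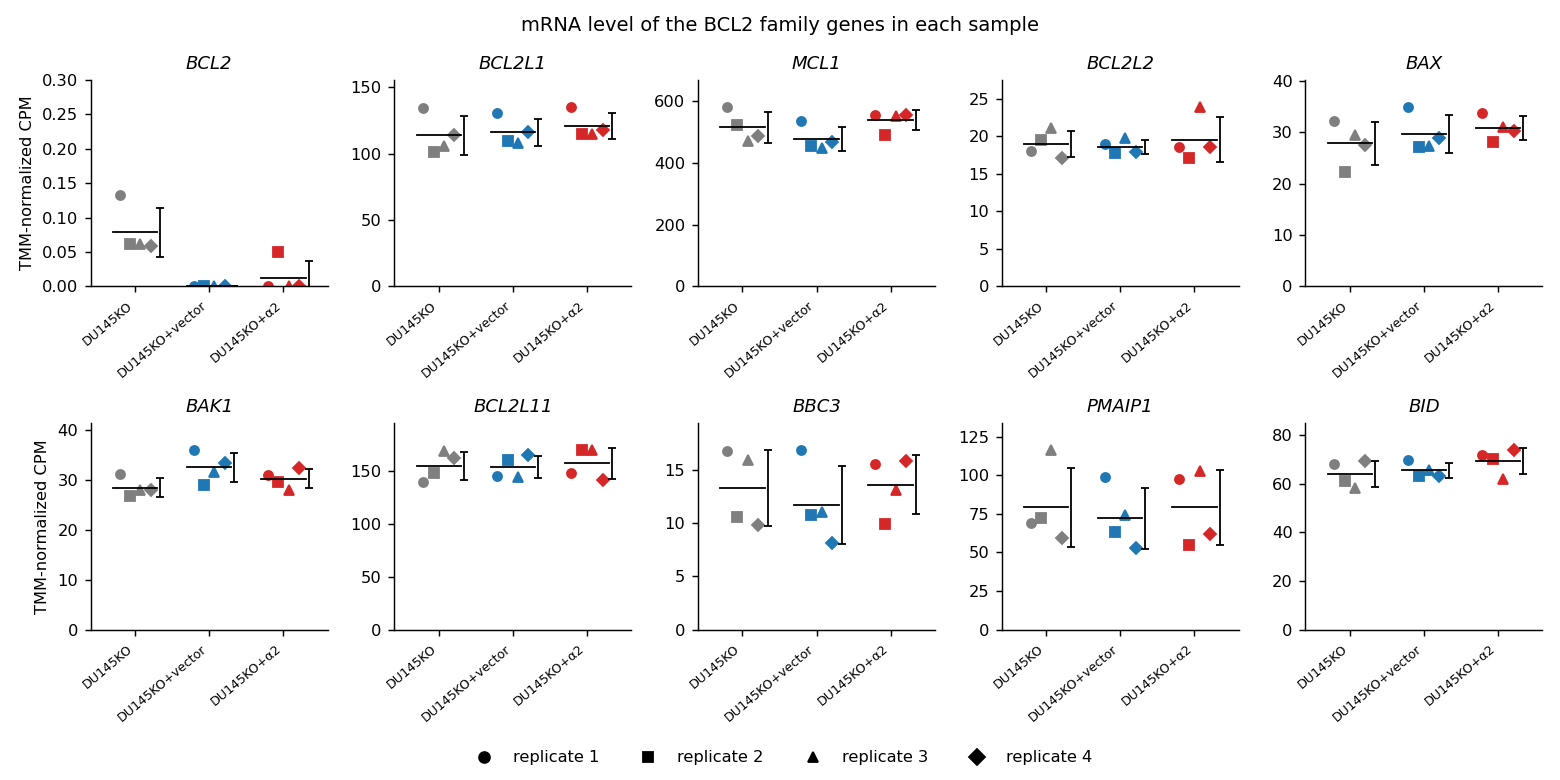
TMM-normalized CPM of the 10 BCL2 family genes in the 12 samples, on linear axes that start at 0, with 1 marker shape per replicate number, a line at the mean and a bar for the SD of each line (n = 4). The 3 lines overlap for every gene except BCL2, which had at most 2 counts in any sample.

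MCL1, an antiapoptotic protein of short half-life that holds BAK1 and several BH3-only proteins, had the smallest adjusted p of the members. Its level was 554, 488, 552 and 555 CPM in replicates 1 to 4 of the DU145KO+α2 line, 536, 455, 448 and 466 CPM in those of DU145KO+vector, and 581, 523, 469 and 485 CPM in those of DU145KO. DU145KO+α2 stood above the vector line at each replicate number, but replicate 2 of DU145KO+α2 lay below replicate 1 of DU145KO+vector, and DU145KO held the highest sample of all. The log2 fold change compared to DU145KO+vector was 0.17 (SE 0.09, 95% CI -0.01 to 0.36, adjusted p = 0.230 in edgeR). With the replicate number as a block it was 0.18 (95% CI 0.06 to 0.30) with an adjusted p of 0.0291, and MCL1 was higher in 4 of 4 same-number pairs.

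The blocked call of MCL1 depended on single libraries of the lines compared. When each of the 12 samples was left out of the blocked fit in turn, the adjusted p stayed below 0.05 in 7 of 12 fits and its log2 fold change was between 0.13 and 0.22. The call was lost without DU145KO+α2 replicate 3 (adjusted p = 0.147) or 4 (0.112), and without DU145KO+vector replicate 2 (0.0826), 3 (0.0933) or 4 (0.0852). Compared to DU145KO, the log2 fold change of MCL1 in DU145KO+α2 was 0.06 (95% CI -0.12 to 0.25) and 2 of 4 same-number pairs were higher. In DU145KO+vector compared to DU145KO it was -0.11 (95% CI -0.30 to 0.07).

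BCL2L1 encodes BCL-XL, the antiapoptotic protein that carcinoma cells are known to rely on beside MCL1. It measured 136, 115, 115 and 118 CPM in replicates 1 to 4 of the DU145KO+α2 line, 131, 110.0, 108 and 116 CPM in those of DU145KO+vector, and 135, 101, 106 and 114 CPM in those of DU145KO. Replicate 1 was the highest sample of each line, and the lines overlapped. The log2 fold change of DU145KO+α2 was 0.06 (95% CI -0.14 to 0.25) compared to DU145KO+vector and 0.09 (95% CI -0.11 to 0.28) compared to DU145KO. DU145KO+α2 was higher in 4 of 4 same-number pairs in both, and neither passed with the replicate block (adjusted p = 0.417 and 0.206 in edgeR).

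BCL2L2, which encodes the antiapoptotic BCL-w, stood between 17.1 and 23.9 CPM over the 12 samples, with its highest value in DU145KO+α2 replicate 3. Its log2 fold changes were 0.07, 0.04 and -0.03 in DU145KO+α2 compared to DU145KO+vector, DU145KO+α2 compared to DU145KO and DU145KO+vector compared to DU145KO. BCL2, the founding antiapoptotic member of the family, was not detected. DU145KO held 2, 1, 1 and 1 counts of it in replicates 1 to 4, DU145KO+α2 held 0, 1, 0 and 0, and DU145KO+vector held none. No sample reached 3 counts, so that no fold change was computed and the order of the lines was not detectable at this depth.

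The effectors BAX and BAK1 were counted at similar CPM. BAX measured 33.8, 28.1, 31.0 and 30.2 CPM in replicates 1 to 4 of the DU145KO+α2 line, 35.0, 27.2, 27.4 and 28.9 CPM in those of DU145KO+vector, and 32.2, 22.3, 29.5 and 27.5 CPM in those of DU145KO. In each line replicate 1 was the highest and replicate 2 the lowest sample of BAX. The log2 fold change of BAX in DU145KO+α2 was 0.05 (95% CI -0.19 to 0.29) compared to DU145KO+vector and 0.14 (95% CI -0.10 to 0.38) compared to DU145KO, where 4 of 4 same-number pairs were higher.

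BAK1, the effector that sits in the outer membrane also in healthy cells, was the member past an unadjusted p of 0.05. It measured 36.0, 29.1, 31.6 and 33.5 CPM in replicates 1 to 4 of the DU145KO+vector line, 31.1, 26.8, 28.0 and 27.9 CPM in those of DU145KO, and 31.1, 29.5, 28.1 and 32.5 CPM in those of DU145KO+α2. The vector line was above DU145KO at each replicate number, although replicate 1 of DU145KO exceeded replicate 2 of DU145KO+vector. Its log2 fold change in the vector line compared to DU145KO was 0.20 (SE 0.08, 95% CI 0.02 to 0.37), with an unadjusted p of 0.0350 and an adjusted p of 0.287 in edgeR. The blocked fit gave an adjusted p of 0.0592. Compared to the vector line DU145KO+α2 stood at -0.11 (95% CI -0.28 to 0.07).

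Of the BH3-only members, BBC3 and PMAIP1 spread the most between samples. BBC3 encodes PUMA, which binds all antiapoptotic members, and measured 15.5, 9.94, 13.1 and 15.9 CPM in replicates 1 to 4 of the DU145KO+α2 line, 16.8, 10.8, 11.0 and 8.13 CPM in those of DU145KO+vector, and 16.7, 10.6, 15.9 and 9.84 CPM in those of DU145KO. The highest sample was 2.07 times the lowest, and replicate 1 was high in all 3 lines. BBC3 had the largest difference between lines of the 9 genes, a log2 fold change of 0.21 in DU145KO+α2 compared to DU145KO+vector, with a 95% CI of -0.29 to 0.71. Over the fits that left out a sample it went from 0.07, without replicate 4 of DU145KO+vector, to 0.45, without replicate 1 of that line.

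PMAIP1 encodes NOXA, which binds MCL1 and promotes its degradation. It measured 97.2, 54.8, 103 and 61.6 CPM in replicates 1 to 4 of the DU145KO+α2 line, 98.7, 63.3, 73.9 and 52.8 CPM in those of DU145KO+vector, and 69.3, 72.0, 116 and 59.0 CPM in those of DU145KO. In both transfected lines replicates 1 and 3 exceeded replicates 2 and 4, and in DU145KO replicate 3 stood alone above the rest. The log2 fold changes were 0.13 (95% CI -0.49 to 0.75) compared to DU145KO+vector and -0.002 (95% CI -0.62 to 0.62) compared to DU145KO, the least precise of the members.

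BCL2L11 encodes BIM, an activator of BAX that binds every antiapoptotic member, and BID is the member that caspase 8 cleaves to connect death receptors with mitochondria. Over the 12 samples BCL2L11 went from 139.8 to 170.4 CPM and BID from 58.1 to 74.0 CPM, ratios of highest to lowest of 1.22 and 1.27 that were the smallest of the members tested. The log2 fold change of BCL2L11 in DU145KO+α2 was 0.03 compared to DU145KO+vector and 0.02 compared to DU145KO. BID was 0.08 (95% CI -0.08 to 0.25) and 0.11 (95% CI -0.05 to 0.28) in the same comparisons, and in the latter it was higher in 4 of 4 same-number pairs without passing the test.

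**Figure D2:**
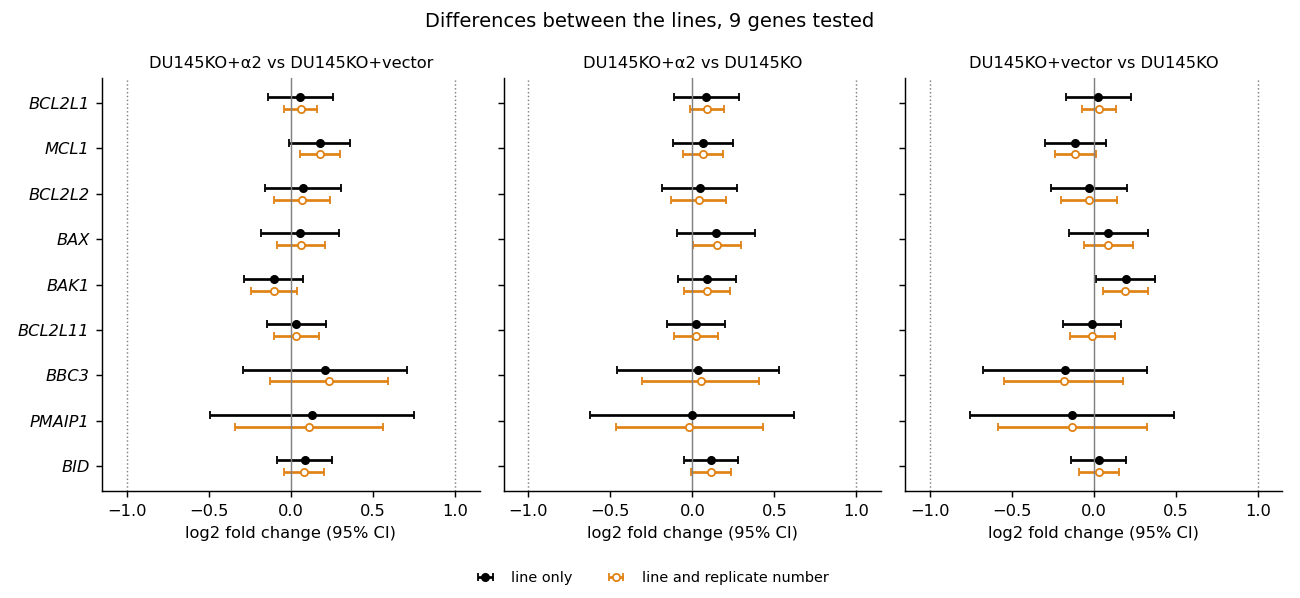
Log2 fold change with its 95% CI of the 9 genes tested, in the 3 comparisons, from the fit with line alone (filled) and with line and replicate number (open); dotted lines mark a 2-fold difference. Every interval lies inside the dotted lines, and those of BBC3 and PMAIP1 are the widest.

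The size of difference that these data leave room for is given by the intervals, each for its own gene and not adjusted over genes. For the 7 tested members other than BBC3 and PMAIP1, the 95% intervals of the fold in the 3 comparisons reached from 0.815 at the lowest to 1.30 at the highest. Those of BBC3 reached from 0.627 to 1.63 and those of PMAIP1 from 0.593 to 1.68. A 2-fold difference between lines thus lay outside all 27 intervals. The median log2 fold change over the 9 members was 0.07, 0.06 and -0.01 in the order of the comparisons above, beside -0.006, -0.003 and -0.001 over all genes tested.

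Levels of different genes were compared as RPKM, which is per gene length. MCL1 was the most abundant member in every line, with a median of 123 RPKM over the 12 samples, higher than 97.2% of the genes tested. BCL2L1 followed with 44.8 RPKM and overlapped with PMAIP1 at 36.3 RPKM in all 3 lines. BCL2L11 (25.1 RPKM), BID (25.1 RPKM) and BAX (22.1 RPKM) overlapped with each other, and their order by the median differed between the lines. BAK1 stood apart at 13.8 RPKM, below them and above BBC3 (5.69 RPKM) and BCL2L2 (5.09 RPKM), which overlapped. BCL2 was last, between 0 and 0.0200 RPKM.

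**Figure D3:**
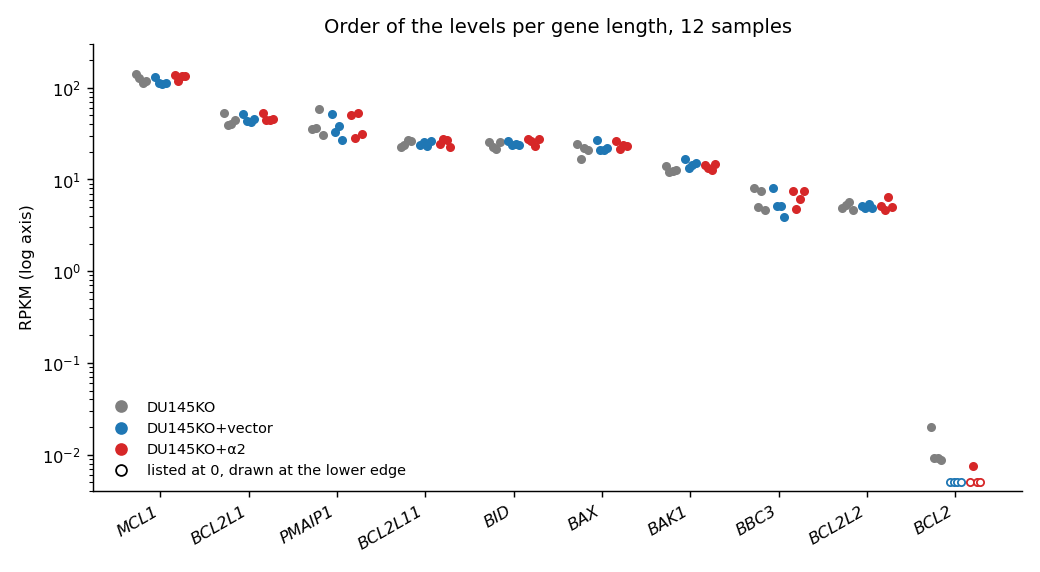
RPKM, the read count per gene length and depth, of the 10 genes in the 12 samples on a log axis, in the order of their medians. MCL1 lies above every other gene in every sample, and BCL2 lies more than 2 powers of 10 below all others.

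Of the summed RPKM of the 4 antiapoptotic genes, MCL1 made up 71.0% ± 1.38 (SD, n = 12) and BCL2L1 26.1% ± 1.46, while BCL2L2 gave 2.98%. The share of MCL1 was 71.4% ± 1.25 in DU145KO+α2, 69.8% ± 0.284 in DU145KO+vector and 71.7% ± 1.55 in DU145KO (SD, n = 4). The samples of DU145KO+vector, at 69.4% to 70.0%, lay below all those of DU145KO+α2 (70.05% to 72.6%) and DU145KO (70.7% to 74.0%), a gap smaller than the spread within either of these lines, and this share was not tested. Of the summed RPKM of the 4 BH3-only genes PMAIP1 gave the largest part, 40.7% ± 6.33 (SD, n = 12). The summed RPKM of the 4 antiapoptotic genes was 1.88 ± 0.169 times that of these 4 BH3-only genes in DU145KO+α2. It was 1.82 ± 0.137 times in DU145KO+vector and 1.85 ± 0.333 times in DU145KO. These ratios of mRNA differed between lines by less than the spread between replicates. Their size depends on the genes chosen. The sums leave out the BH3-only genes BMF and BAD, with medians of 35.6 and 30.6 RPKM over the 12 samples. They also leave out the antiapoptotic genes BCL2A1 and BCL2L10, at 1.57 and 0.625 RPKM. A ratio that includes these genes was not computed.

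Samples with the same replicate number moved together across the lines, and this was tested after the values had been seen. In a model with line and number, 2 of the 9 members differed between the 4 replicate numbers at an adjusted p of 0.05, beside 35.7% of all genes tested. BCL2L1 had the smallest adjusted p (0.00117 in edgeR), with replicate 1 on average 0.20 above the mean of its line on the log2 scale, and BAX followed (adjusted p = 0.00842), from 0.20 in replicate 1 to -0.18 in replicate 2. Both calls were kept when any of the 12 samples was left out. The number of members called was 4 with voom and limma, 5 with the DESeq2 likelihood ratio test, and 2 to 4 with a sample left out. The share of all genes called was not counted for these alternatives, so that their numbers have no background to be set against.

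PMAIP1 and BBC3 had the widest spread between replicate numbers, 0.73 and 0.63 on the log2 scale, and missed the threshold (adjusted p = 0.0725 and 0.0517 in edgeR). Replicate number took up a larger share of the sum of squares than line in 9 of 9 members, compared to 58.9% of all genes tested. Its median share was 55.4% over the members and 39.0% over all genes, and that of line was 9.08% and 27.7%, where number has 4 levels and line has 3. For BCL2L1 the share of number was 86.1% and that of line 8.50%, and for BAK1 they were 42.3% and 42.1%. The labels do not say what a replicate number stands for.

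**Figure D4:**
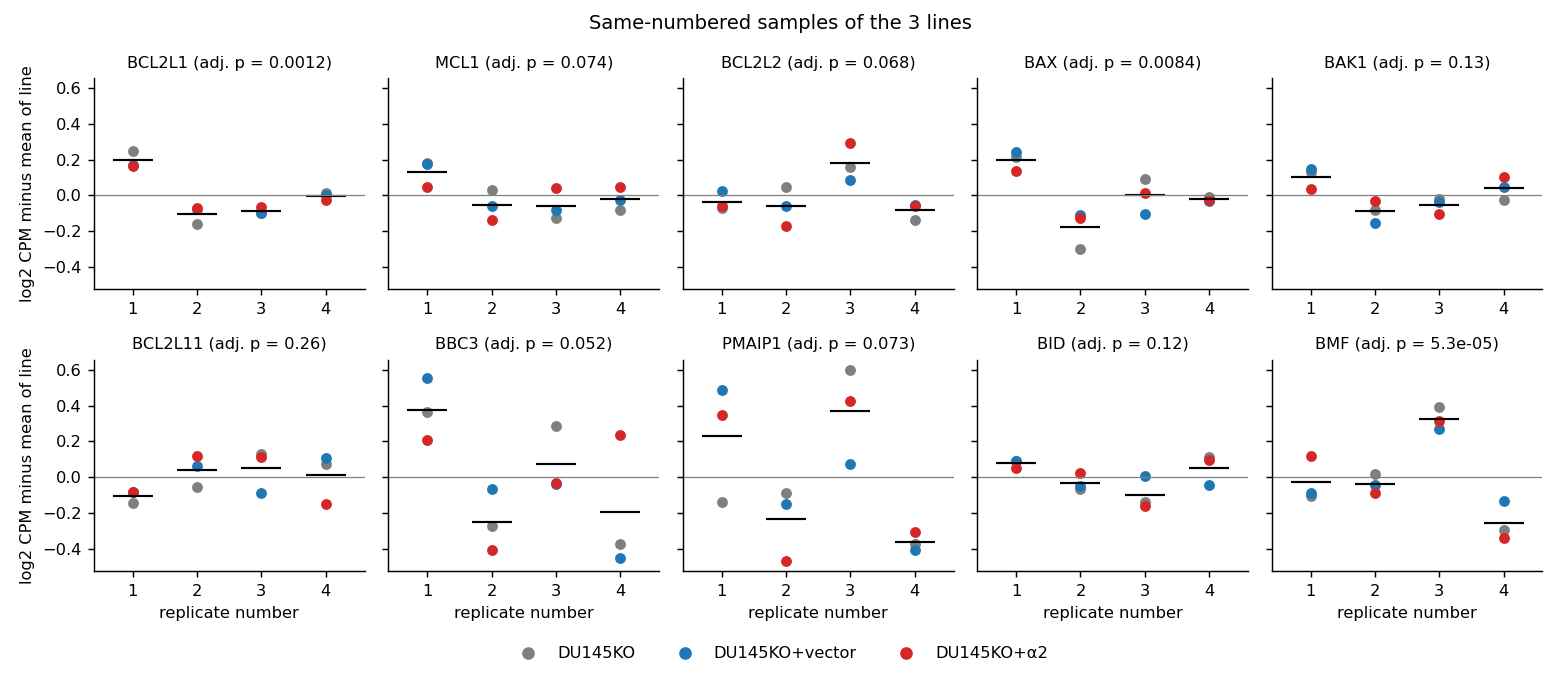
Difference between log2(CPM + 0.5) of each sample and the mean of its line, by replicate number, for the 9 genes tested and for BMF, a BH3-only gene outside the 10; the horizontal marks are means over the 3 lines and each title gives the adjusted p of replicate number. Replicate 1 lies above 0 in all 3 lines for BCL2L1, MCL1, BAX, BAK1, BBC3 and BID.

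A further 13 genes are usually counted with the family by sequence or by a BH3-like stretch. BNIP3 and BNIP3L, mitochondrial receptors of mitophagy that are known as targets of the hypoxia response, were the 2 of 11 tested that changed in edgeR. Both did so in the α2 positive line, where 11.9% of all genes tested changed against the vector line and 8.17% against DU145KO. BNIP3 measured 195.3 to 277 CPM in DU145KO+α2 compared to 117 to 135 CPM in DU145KO+vector samples and 128 to 168 CPM in DU145KO samples. Its log2 fold change was 0.95 (SE 0.11, adjusted p = 5.4e-05) compared to the vector line and 0.72 (SE 0.11, adjusted p = 0.00048) compared to DU145KO. BNIP3L measured 387 to 536 CPM in DU145KO+α2, 254 to 312 CPM in DU145KO+vector samples and 259 to 325 CPM in DU145KO samples.

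The log2 fold change of BNIP3L was 0.81 (SE 0.11, adjusted p = 0.000152) compared to the vector line and 0.67 (SE 0.11, adjusted p = 0.000831) compared to DU145KO. For both genes the lines did not overlap in these comparisons, as for 17.2% and 12.9% of all genes tested, and neither changed in DU145KO+vector compared to DU145KO. BNIP3L lies on chromosome 8 among genes that moved with it. The median log2 fold change of 72 other tested genes within 5 Mb was 0.48 compared to the vector line and 0.29 compared to DU145KO, and the part of this regional shift in the values of BNIP3L was not tested. For BNIP3 on chromosome 10 the medians of 24 neighbours were -0.02 and 0.07.

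Among the remaining family genes, BCL2L13 had a log2 fold change of -0.20 compared to DU145KO+vector in the α2 positive line and of -0.19 compared to DU145KO. Its lines did not overlap, and its adjusted p was 0.0528 and 0.0868 in edgeR, 0.0047 and 0.0087 with the replicate block, and 0.0112 and 0.0271 with the DESeq2 Wald test. With the block 3, 4 and 1 of the 11 changed in the 3 comparisons, beside 26.5%, 22.3% and 13.4% of all genes tested, BCL2L15 (-0.67 compared to DU145KO) and BOK (0.29 in DU145KO+vector compared to DU145KO) being the others added to BNIP3, BNIP3L and BCL2L13. BAD, BIK, BMF, BCL2A1, BCL2L10 and BCL2L12 did not change, and HRK and BCL2L14 had too few counts for the test.

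A further list held 26 caspases, apoptosome parts, inhibitors of apoptosis and channels that act before, at or after the mitochondrion, all of them tested. VDAC2, a channel of the outer membrane known to bind BAK1, rose in DU145KO+α2 compared to DU145KO+vector, with a log2 fold change of 0.44 (SE 0.11, adjusted p = 0.0126). Compared to DU145KO its log2 fold change was 0.30 (adjusted p = 0.103 in edgeR), which did not pass the test, and the replicate block gave an adjusted p of 0.00077. Compared to DU145KO, BIRC3 and BIRC7, both inhibitors of apoptosis, fell by 0.50 (adjusted p = 0.00464) and by 1.48 (adjusted p = 0.0438) in edgeR. Their log2 fold changes compared to the vector line were -0.12 (adjusted p = 0.497) and -0.17 (adjusted p = 0.881). BIRC7 had between 2 and 35 counts per sample, and its call held in 4 of 12 fits that left out a sample and was lost when the compared groups alone were fitted (adjusted p = 0.0652). Neither had changed in DU145KO+vector compared to DU145KO, where the log2 fold changes were -0.37 (adjusted p = 0.0592) and -1.31 (adjusted p = 0.136).

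No other gene of this list changed in edgeR without the block. VDAC3, a further channel, had a log2 fold change of -0.27 in DU145KO+α2 compared to DU145KO+vector. Its adjusted p was 0.0538 in edgeR and 0.00111 with the replicate block. Compared to DU145KO the log2 fold change of VDAC3 was -0.01 (adjusted p = 0.968 in edgeR). The median log2 fold change of the list was -0.05, 0.0006 and -0.007 in the 3 comparisons. With the replicate block the number of changed genes of the list was 2, 5 and 6 in place of 1, 2 and 0, where the block called 26.5%, 22.3% and 13.4% of all genes tested in place of 11.9%, 8.17% and 2.34%. The DESeq2 Wald test called 2, 2 and 1 genes of the list, and its share of all genes tested was not counted. VDAC2, compared to DU145KO+vector, and BIRC3, compared to DU145KO, kept their calls in all settings tried, those without a sample included.

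Of 13 tested transcription factors known to act upstream of family genes none changed in edgeR, with the DESeq2 Wald test or with voom, with 3, 0 and 1 at an unadjusted p below 0.05, and 4, 0 and 1 changed with the block. Of 15 partners and turnover factors of family proteins none changed with these 3 tools, with 3, 4 and 1 at an unadjusted p below 0.05, and 2, 3 and 2 changed with the block. These blocked counts of both lists stand beside 26.5%, 22.3% and 13.4% of all genes tested with the block. For the counts at an unadjusted p below 0.05, and for those with the DESeq2 Wald test and voom, the share of all genes tested was not counted. The medians were 0.06, -0.03 and -0.08 for the transcription factors and 0.04, 0.01 and -0.06 for the partners.

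**Figure D5:**
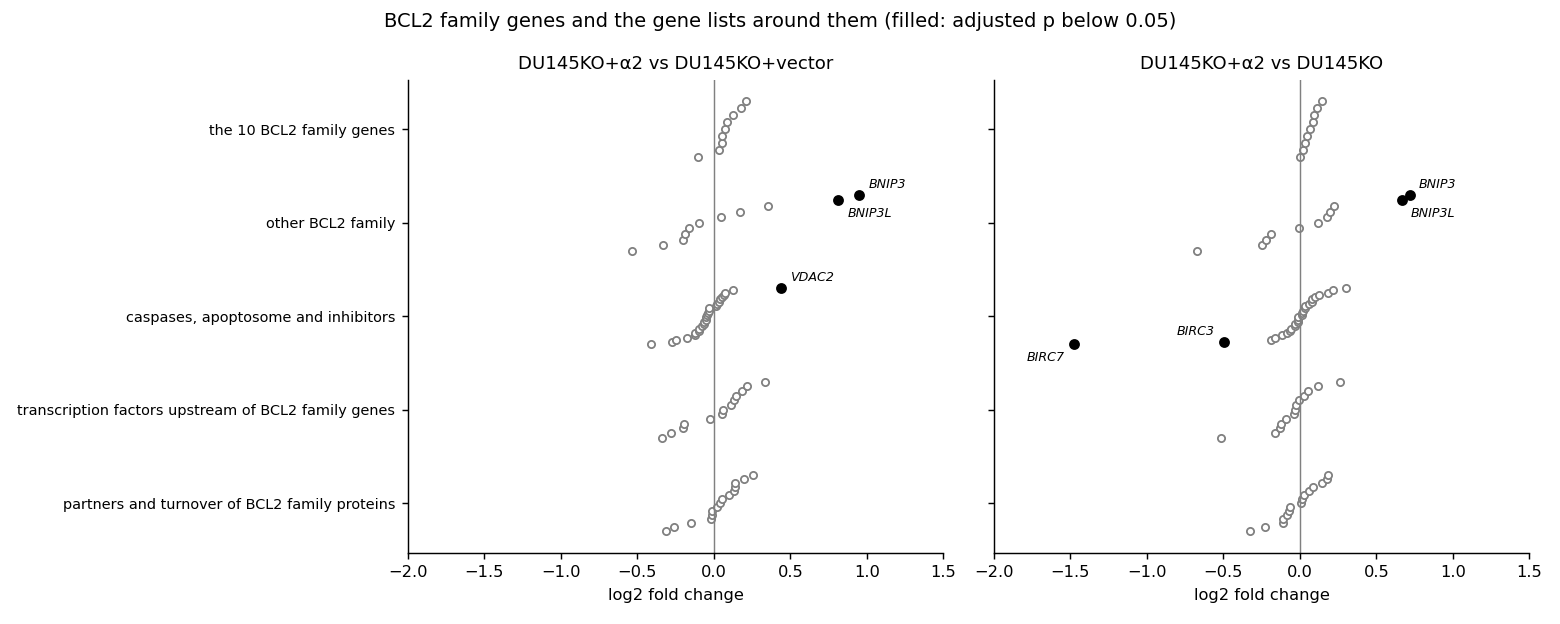
Log2 fold change of the tested genes of each list in the α2 positive line compared to DU145KO+vector and to DU145KO, sorted within the list, with genes at an adjusted p below 0.05 filled and named. The 9 tested BCL2 family genes lie between -0.11 and 0.21, and BNIP3, BNIP3L and VDAC2 stand to the right in the comparison with the vector line.

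The neighbourhood of the members in the genome had shifts, some of them as large as those of the members themselves. Within 5 Mb of each member the median log2 fold change of the other tested genes was between -0.12, around BCL2L11 when DU145KO+α2 was compared to the vector line, and 0.15, around BCL2L2 in DU145KO+vector compared to DU145KO. Around MCL1 it was 0.004 with 144 neighbours in the comparison with the vector line. Around BCL2L1 it was 0.05 and 0.09 in DU145KO+α2 compared to the vector line and to DU145KO, where BCL2L1 itself had 0.06 and 0.09. Around BCL2L2 it was 0.14 in DU145KO+α2 compared to DU145KO, where BCL2L2 itself had 0.04. The part of these shifts in the values of the members was not tested. Exons of BCL2, BAX, PMAIP1 and BID overlapped with no other gene of the tables. BCL2L1 shared 41.3% of its exon bases with the antisense gene ABALON, which had 1 to 22 counts, and BCL2L11 shared 10.8% with the antisense MIR4435-2HG, which had 119 to 240. BCL2L2 shared 16.8% with the readthrough gene BCL2L2-PABPN1 on the same strand, to which no read was assigned. MCL1 shared 5.27% with ADAMTSL4-AS1 on the same strand, which had 3 to 14 counts. The library kit keeps the strand, but the strand setting of the counting is not given in the sources used here, so that the reads of the antisense partners may not be told apart. For the partners on the same strand no strand setting separates the reads of shared bases.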

How the data were processed

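Stranded mRNA libraries were read from 1 end, and the authors kept reads with a unique position in hg38 and counted them per gene. The submitters' processing notes name bcl2fastq 1.8.4, TopHat2 2.1.0, Subread 1.5.0, edgeR and limma. The authors deposited the read counts without normalization, and these were tested. The deposited RPKM values, normalized by the authors with TMM and divided by gene length, were used for levels between genes. The 42 rows without a symbol held 0.0621% of the counts.

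In R 4.3.3, genes were kept with edgeR 4.0.16 (filterByExpr, minimum count 10), which left 14732. The 12 samples entered 1 model with a factor for line, TMM factors, robust dispersion and the two-sided quasi-likelihood F-test, with Benjamini-Hochberg adjustment over all genes tested. A gene changed at an adjusted p below 0.05 at any fold. Alternatives were DESeq2 1.42.0 size factors, library size alone, the DESeq2 Wald test, voom with limma 3.58.1, no filter, a mean CPM of at least 1, the compared groups only, a replicate block and each sample left out. Chosen after seeing the data were the test of replicate number with its alternatives and the blocked fit without each sample. P-values measure the spread between samples that the labels call biological replicates. No 2 replicates of a line agreed within sampling noise (chi-square per degree of freedom of at least 6.98 across genes). The scripts were tested on simulated counts.

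Replicate numbers come from the sample titles. The deviations of same-numbered samples from their line means correlated across genes in each of 12 pairs (r from 0.148 to 0.603, mean 0.423). On this ground the numbers were taken to pair the samples. Different numbers had a mean r of -0.140, which is largely set by the centring on line means and adds no separate support. DU145KO replicate 3 with DU145KO+vector replicate 2 reached 0.184, above the lowest same-number pair. The main fit had no block, since the study's methods state none.

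The members and lists were chosen with earlier results of these data known. Genes named are the 10 members, ITGA2, the other family genes, up to 6 genes per list past an adjusted p of 0.05, and the 5 genes most like the member with the smallest adjusted p. VDAC3 was named in addition, for its value with the replicate block. Marker lists of epithelium, fibroblasts, endothelium and leukocytes checked the cell type. Positions and exon overlaps come from GENCODE 44 in GRCh38, the authors' build. The protein and functional experiments were not analysed here, and a further gene list and some single genes are not reported here.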

Additional observations from a re-analysis of the deposited data

Results flagged for a closer look

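Within each line, the sample farthest from the other 3 was compared with the range of the 4 (Dixon's test) for the 10 members and 13 further family genes. Of 66 groups of 4 samples 6 passed the critical value at the 95% level, where chance gives about 1 in 20, or 3.3. MCL1 in DU145KO+α2 replicate 2 stood apart, at 488 CPM below 552 to 555 CPM in the other replicates (gap over range 0.948). Without this library the log2 fold change of MCL1 compared to DU145KO+vector was 0.22 with the replicate block (adjusted p = 0.0163). BNIP3L in DU145KO+vector replicate 1 was high at 312 CPM, above 254 to 257 CPM (0.955). BCL2A1 in DU145KO replicate 1 was high at 2.58 CPM, above at most 1.598 CPM (0.836). The remaining 3 rest on 1 or 2 counts and lie below the detection floor: BCL2 in DU145KO replicate 1 with 2 counts (0.960), BCL2 in DU145KO+α2 replicate 2 with 1 count (1) and BCL2L14 in DU145KO+vector replicate 2 with 1 count (1).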

How the results depend on the processing

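Of the 27 fold changes of members, none passed an adjusted p of 0.05 in any setting without the replicate block, where the smallest was 0.108, and the largest log2 fold change of any setting was 0.45. The replicate block, which uses the pairing of the samples by number, gave 1 changed member, MCL1 (0.18), and changed no other call of a member. Without single samples the blocked number was 0 to 1 and the fold change of MCL1 0.13 to 0.22. In 34 of the 540 alternatives a member's sign turned, 2 of them from a value of at least 0.1. PMAIP1 in DU145KO+α2 compared to DU145KO (-0.002) became 0.0088 with DESeq2 size factors, 0.0098 with the DESeq2 Wald test, 0.0097 without a filter and 0.0075 with the compared groups only. Leaving out single samples turned the sign of these log2 fold changes. For DU145KO+α2 compared to DU145KO+vector the ranges were -0.0012 to 0.13 (BCL2L1), -0.033 to 0.13 (BCL2L2), -0.0063 to 0.081 (BCL2L11) and -0.016 to 0.33 (PMAIP1). Compared to DU145KO they were -0.053 to 0.10 (BCL2L2), -0.017 to 0.071 (BCL2L11), -0.085 to 0.18 (BBC3) and -0.14 to 0.24 (PMAIP1). For DU145KO+vector compared to DU145KO they were -0.031 to 0.12 (BCL2L1), -0.074 to 0.028 (BCL2L2), -0.0026 to 0.17 (BAX), -0.051 to 0.035 (BCL2L11), -0.32 to 0.11 (PMAIP1) and -0.015 to 0.069 (BID). In the order DU145KO+α2 compared to DU145KO+vector, DU145KO+α2 compared to DU145KO and DU145KO+vector compared to DU145KO, the replicate block called 26.5%, 22.3% and 13.4% of all genes tested and gave 2, 5 and 6 changed genes of the caspase list. It gave 2, 3 and 2 partners, 4 transcription factors in the first comparison and 1 in the third, and 4 and 1 further family genes in the last 2. Without single samples the caspase list had 1 to 2, 1 to 2 and 0 to 1 changed genes, transcription factors 0 to 1 in the first, and partners 0 to 2 and 0 to 1 in the first and second. The caspase list had 2 in the first comparison with the DESeq2 Wald test and with the compared groups only, 1 in the second with a mean CPM of at least 1 and with the compared groups only, and 1 in the third with the Wald test and without a filter. For these settings and for the fits without single samples the share of all genes called was not counted. The number of members that differed between replicate numbers was 4 with voom, 5 with the DESeq2 likelihood ratio test and 2 to 4 without single samples, where the share of all genes called was not counted. The causes were not tested. BCL2 lay below the detection floor in every sample, and with 4 samples per line differences as small as those of the members were within their intervals. The counts carry no molecular identifiers, mRNA gives no protein level, and lanes were not modelled.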

Other observations

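Among the further family genes, BMF, a BH3-only gene known for its response to loss of attachment, differed between replicate numbers with the smallest adjusted p of the family (5.3e-05 in edgeR). It stood on average 0.32 above the mean of its line in replicate 3 and 0.26 below it in replicate 4 on the log2 scale, higher in replicate 3 than in replicate 4 in all 3 lines, while its log2 fold change between lines was at most 0.10 in size. BCL2L10 (adjusted p = 0.0176) and BNIP3L (adjusted p = 0.0277) differed between replicate numbers as well. The further family genes tested numbered 11, and 35.7% of all genes tested differed between replicate numbers. These tests were chosen after the values had been seen, and what the numbers stand for was not tested.

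The level of MCL1 over the 12 samples, as edgeR's log2 CPM centred on its mean, was most like that of CHMP1B, GTF2F2, DLAT, CYB5R4 and MAGEF1 among 12850 genes. Their mean absolute difference from MCL1 was 0.044, 0.047, 0.051, 0.051 and 0.052 on the log2 scale, where MCL1 itself ranged over 0.37. The 12 samples share their libraries and replicate numbers, and the likeness is a description.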
